A study of Mus musculus with 2 samples.

Results

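The 10 genes described here are 6 carbonic anhydrases (Car1, Car2, Car3, Car12, Car13 and Car14) and 4 anion or bicarbonate transporters (Slc26a4, Slc26a7, Slc4a11 and Slc4a1), taken by symbol from the 27998 genes counted, and all 10 were present in both matrices. They were followed across the cell types of the cochlea of wild-type C57BL/6 mice at postnatal day 20, dissociated with trypsin and measured by droplet single-cell RNA sequencing. The design is 1 group of 2 libraries, without treatment or genotype contrast, made to survey which genes the cochlea expresses at this age. The labels do not say which animals gave which library, so the spread between the 2 libraries may be technical. A p-value here rests only on that spread, after a shift common to all classes is removed. The spread is estimated over classes and largely shared between genes.

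Carbonic anhydrases convert carbon dioxide and water to bicarbonate and a proton. Car1, Car2, Car3 and Car13 are cytosolic, with Car3 a slow isoform, whereas Car12 and Car14 are anchored in the plasma membrane with the active site outside the cell. Slc26a4 (pendrin) exchanges chloride for bicarbonate and other anions, and its loss in mouse and human gives deafness with an enlarged vestibular aqueduct. Slc26a7 is an anion transporter of the same family, Slc4a1 (band 3) is the anion exchanger and membrane skeleton anchor of the red cell, and Slc4a11 is a borate-transporter-like member of the Slc4 family whose loss affects the cornea and the inner ear. In the lateral wall of the cochlea, fibrocytes and the stria vascularis sustain the endolymph, the potassium-rich fluid whose voltage drives hair cells.

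After removal of barcodes with under 300 genes or over 20% mitochondrial UMIs (unique molecular identifiers, counted molecules) and of marked doublets, 1969 cells remained, 1329 in library 1 and 640 in library 2, with medians of 10601 and 6115.5 UMIs. Only 2 barcodes occurred in both libraries. Cells were clustered with all 10 genes left out, which gave 21 classes, 12 named from markers and 9 left with a number and their leading genes. The cochlear label was borne out by hair cell-like cells (12 of 12 markers), fibrocyte-like cells (3 of 7: Otos, Kcnk2 and Wfs1) and epithelial classes, but 623 cells fell into blood lineage classes, 449 of them erythroid. Haemoglobin genes made up 87.8% and 91.0% of all UMIs of late erythroid cell-like cells and 27.7% and 52.6% of early erythroblast-like cells in libraries 1 and 2. In the other classes they made up 0.570% to 7.92% in library 1 and 0.141% to 1.31% in library 2, the highest in cluster 16. Levels are given as CPM, the gene's UMIs per 1000000 UMIs of the class in that library, and are compared between classes and not between genes.

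Of the members, 5 lie on chromosome 3 of the mouse genome (GRCm38, gene coordinates from GENCODE). Car13 (chr3:14641727-14663002, + strand), Car1 (chr3:14766216-14808368, - strand), Car3 (chr3:14863512-14872523, + strand) and Car2 (chr3:14886273-14900770, + strand) are the only 4 protein-coding genes in a span of 259.044 kb, and Car3 ends 13.749 kb before Car2 begins. Car14 (chr3:95897768-95904691, - strand) overlaps Aph1a on the other strand. The sources used here do not say whether strand was used in counting, so reads of that overlap cannot be told apart. Car1 holds a processed pseudogene, Gm16399, on its own strand, which makes its counts uncertain to that extent. The remaining members are Car12 (chr9:66713686-66766845, + strand), Slc26a4 (chr12:31519827-31559969, - strand), Slc26a7 (chr4:14502430-14621805, - strand), Slc4a11 (chr2:130684113-130697519, - strand) and Slc4a1 (chr11:102348824-102366203, - strand).

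RefSeq promoters (GRCm38.p6) were matched for 3 members, Car12, Car14 and Slc26a4. The 250 bases before each start are printed 5′ to 3′ because these genes were highest in different classes below. They were searched on both strands for 3 motifs, none of which contains another: TGTTTAC, a forkhead motif, CATGTG, an E-box bound by the melanocyte factor Mitf, and ACGTG, the core of the hypoxia response element. These motifs occur in 3.17%, 12.3% and 16.6% of the 32851 promoters of the same length. The 1 match, in capitals, was the hypoxia core in Car14, printed as CACGT, its reverse complement, and starting at position -7 from the start. The 3 sequences had 6, 10 and 4 CpG dinucleotides for Car12, Car14 and Slc26a4, against a median of 6.0 over all promoters, and GC contents of 59.2%, 62.0% and 49.6% against a median of 52.4%.
Car12 (chr9:66713436-66713685, + strand): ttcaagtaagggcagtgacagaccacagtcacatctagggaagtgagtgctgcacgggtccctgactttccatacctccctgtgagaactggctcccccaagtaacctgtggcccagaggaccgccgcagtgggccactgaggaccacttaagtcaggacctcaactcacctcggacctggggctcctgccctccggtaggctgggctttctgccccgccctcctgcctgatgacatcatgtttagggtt
Car14 (chr3:95904686-95904935, - strand): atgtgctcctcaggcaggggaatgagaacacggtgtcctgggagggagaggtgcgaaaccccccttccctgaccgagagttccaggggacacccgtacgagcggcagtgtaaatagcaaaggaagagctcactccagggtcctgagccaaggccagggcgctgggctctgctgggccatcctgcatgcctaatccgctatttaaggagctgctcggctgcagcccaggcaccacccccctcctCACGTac
Slc26a4 (chr12:31559985-31560234, - strand): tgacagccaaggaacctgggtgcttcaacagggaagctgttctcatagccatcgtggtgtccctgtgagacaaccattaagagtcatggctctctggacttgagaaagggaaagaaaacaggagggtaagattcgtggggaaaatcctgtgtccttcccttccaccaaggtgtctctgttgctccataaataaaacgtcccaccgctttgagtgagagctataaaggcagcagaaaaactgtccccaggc

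The 10 genes divided the classes between them. Car1, Car2 and Slc4a1 were high in erythroid cells, Car3 and Car14 in fibrocyte-like cells, Car13 in several epithelial classes, Slc4a11 in 3 clusters left without a name (7, 8 and 16), and Slc26a4, Slc26a7 and Car12 each in small sets of epithelial or stria cells. Total UMIs in kept cells ran from 94 (Car12) through 186 (Slc26a7), 302 (Slc26a4), 481 (Car1), 685 (Car13), 1158 (Slc4a11), 1862 (Slc4a1), 3781 (Car3) and 4515 (Car14) to 16634 (Car2). For the test, each class with at least 10 cells in both libraries was set against the mean of the other such classes in edgeR, with a library block. Car1 and Car12 did not pass the filter on low counts there, and 8 members were tested in 10 classes. Of these 80 tests, 20 were called higher and 12 lower at an adjusted p under 0.05, where 14.1% and 5.6% of all held-out gene tests were called higher and lower. A gene enters the test largely through the class in which it is high, so these counts are given as a description. Higher calls numbered 2 of 8 in cluster 16 (10.1% of all tested genes), 3 in cluster 20 (11.9%), 2 in cluster 3 (9.21%), 1 in cluster 7 (18%), 2 in cluster 8 (19.4%), 3 in fibrocyte-like cells (17.5%), 4 in late erythroid cell-like cells (10.9%) and 3 in non-sensory epithelium-like cells (18.3%). Lower calls numbered 2 in cluster 20 (7.1%), 1 each in cluster 7 (6.31%), cluster 8 (6.11%) and fibrocyte-like cells (7.91%), 3 in fibroblast-like cells (4.64%), 2 in macrophage-like cells (8.38%) and 2 in non-sensory epithelium-like cells (8.79%). Classes with at least 4 cells in both libraries were fitted separately, and there all 10 members were tested. The mean of the other classes there also holds early erythroblast-like and hair cell-like cells and clusters 13 and 17. Differences from the 2 fits therefore have unlike references. The fit with at least 4 cells added 3 higher and 1 lower call in early erythroblast-like cells (25.9% and 18.9% of all tested genes), 1 higher and 1 lower in cluster 13 (15.6% and 4.54%), 2 higher in cluster 17 (14.5%) and 2 lower in hair cell-like cells (11.4%). Non-sensory epithelium-like cells had 4 higher and 1 lower there (14.9% and 3.58%).

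**Figure D1:**
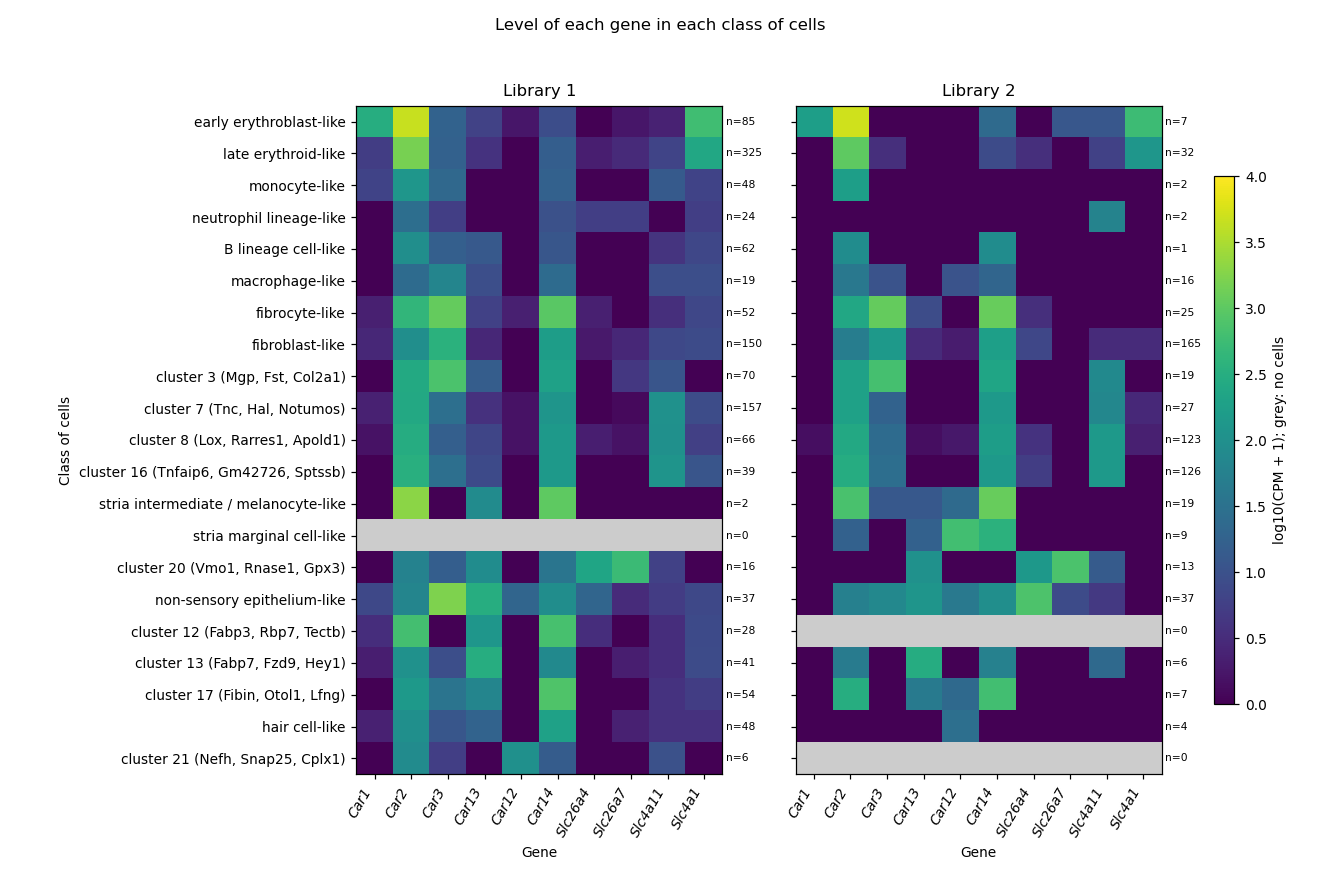
Level of each gene (columns) in each class of cells (rows) in library 1 and library 2, as log10(CPM + 1), with the number of cells beside each row and grey where a library had no cell of the class. Car2 is visible in nearly all rows, whereas Car1, Slc4a1, Slc26a7 and Car12 are each bright in 1 or 2 rows.

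Car2, the fast cytosolic isoform of red cells and osteoclasts, had its highest levels in erythroid cells. Early erythroblast-like cells had 4675 and 5219 CPM (libraries 1 and 2; all 85 and all 7 cells with a UMI), and late erythroid cell-like cells 1486 and 1021 CPM (266 of 325 and 27 of 32 cells). Late cells exceeded the mean of the other classes by 6.93 ± 0.16 on the log2 scale (SE; edgeR adjusted p = 1.58e-53), and early cells by 5.58 ± 0.20 in the fit of classes with at least 4 cells (edgeR adjusted p = 4.09e-165). The mean set against early cells includes late cells, whereas that set against late cells includes no early cells. The 2 differences are therefore not comparable. Car2 was also widespread outside blood. Fibrocyte-like cells had 433 and 249 CPM, cluster 16 (Tnfaip6, Gm42726, Sptssb) 336 and 302, cluster 8 (Lox, Rarres1, Apold1) 298 and 258, cluster 3 (Mgp, Fst, Col2a1) 273 and 192, and cluster 7 (Tnc, Hal, Notumos) 255 and 195. The library range of fibrocyte-like cells overlapped with those of the 4 clusters, and that of cluster 3 with clusters 8 and 7, while clusters 8 and 7 did not overlap with each other and cluster 16 lay above clusters 8, 3 and 7. Connective tissue fibroblast-like cells had 93.7 and 48.3 CPM, non-sensory cochlear epithelium-like cells 65.4 and 54.3, cluster 20 (Vmo1, Rnase1, Gpx3) 59.0 and 0, and macrophage-like cells 24.3 and 38.5.

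Car2 was called lower than the mean of the other classes in connective tissue fibroblast-like cells (-1.72 ± 0.28), non-sensory epithelium-like cells (-1.94 ± 0.32), cluster 20 (-2.92 ± 0.43) and macrophage-like cells (-2.98 ± 0.48). It was called higher in cluster 16 (0.91 ± 0.23), fibrocyte-like cells (0.73 ± 0.23) and cluster 8 (0.58 ± 0.22), but these 3 calls were lost when classes with at least 4 cells were fitted (edgeR adjusted p = 0.0805, 0.139 and 0.271). The reference mean differs there, as early erythroblast-like cells with 4675 and 5219 CPM of Car2 enter it. The part of this change in the lost calls was not tested. In the fit with at least 4 cells Car2 was also lower in hair cell-like cells (-1.90 ± 0.42; 97.9 and 0 CPM) and in cluster 13 (-1.54 ± 0.39). The 0 in the 4 hair cell-like cells of library 2 allows up to 83.3 CPM (3 counts). Of the classes too small for that test, stria intermediate cell or melanocyte-like cells had 2004 and 706 CPM from 2 and 19 cells, and cluster 12 (Fabp3, Rbp7, Tectb; library 1 only) had 646 CPM with a Car2 UMI in 28 of 28 cells.

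Car1, a red cell anhydrase, was found almost wholly in early erythroblast-like cells. They had 313 and 171 CPM (432 and 15 UMIs; 37 of 85 and 3 of 7 cells), against 4.38 and 0 CPM in late erythroid cell-like cells (15 UMIs and 0). No other class exceeded 6.33 CPM in either library. In macrophage-like cells, a class that should lack the gene, 0 of 35 cells had a UMI, at median depths of 6446 and 6880.5 UMIs against 11940 and 13156 in early erythroblast-like cells. Early cells stood 9.16 ± 0.30 above the mean of the other classes on the log2 scale (edgeR adjusted p = 1.41e-204). Within the early class, a finer cluster led by Fam132a, Gfi1b and Asns held 349 of the 432 Car1 UMIs of library 1, in 23 of 30 cells, at 465 CPM. It was picked because it held most Car1 UMIs, so a high share follows from the choice. In library 2 the same finer cluster held 4 of the 15 UMIs, in 1 of 2 cells. Slc4a1 in that finer cluster was 217 CPM in library 1, below the 599 CPM of the whole early class.

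Slc4a1 was confined to erythroid classes apart from low counts. Early erythroblast-like cells had 599 and 547 CPM (75 of 85 and 6 of 7 cells), and late erythroid cell-like cells 249 and 124 CPM (228 of 325 and 17 of 32 cells). All other classes lay between 0 and 10.3 CPM. Late cells exceeded the mean of the other classes by 10.26 ± 0.23 (edgeR adjusted p = 5.47e-54), and early cells by 8.04 ± 0.28 in the fit with at least 4 cells (edgeR adjusted p = 9.32e-173). In connective tissue fibroblast-like cells, which should lack band 3, 3.17% of cells had a UMI (0.635% after thinning each cell to 2000 UMIs), against 68.6% (32.2%) of late erythroid cell-like cells.

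The low UMIs of Slc4a1 and Car1 outside erythroid cells were set against those of the globin gene Hbb-bs. The ratio differed widely between early and late erythroid cells, from 52.8 to 6.33 for Slc4a1 and from 27.6 to 0.111 for Car1 per 10000 Hbb-bs UMIs in library 1, so the pooled erythroid value is a mixture. Pooled, Slc4a1 had 11.2 in erythroid classes of library 1, above the 8.72 of all other classes (exact Poisson 95% interval 6.90 to 10.9), and in library 2 it had 6.56 and 6.04 (2.22 to 13.1). Car1 had 2.97 and 2.01 (1.19 to 3.18) in library 1 and 0.993 and 1.01 (0.0255 to 5.61) in library 2. Car2 had 76.8 in erythroid classes and 336 elsewhere in library 1, and 58.2 and 1217 in library 2. The intervals cover counting error only.

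How the red cell genes compared between early and late erythroid cells depended on the scale, because haemoglobin takes up most UMIs of late cells. With haemoglobin left out of the denominator, Car2 was 8740 ± 3214 in early and 11776 ± 646 in late cells (SD, n = 2), where over all UMIs it was 4947 ± 385 and 1254 ± 329. Slc4a1 was 992 ± 230 and 1710 ± 479 without haemoglobin, and 573 ± 37.0 and 186 ± 88.7 with it. Car1 was higher in early cells on both scales, 397 ± 51.1 against 18.0 ± 25.5 without haemoglobin. In the edgeR fit with at least 4 cells, whose TMM factors scale for such composition, Car1 was higher in early cells by 3.60 ± 0.43 (adjusted p = 3.22e-14) and Slc4a1 lower by 1.10 ± 0.38 (a log2 difference of -1.10; adjusted p = 0.0173), while Car2 differed by -0.78 ± 0.39 (adjusted p = 0.117). Of the 10 members, 1 was called higher and 4 lower, where 13.4% and 15.9% of all tested genes were. The other 3 lower calls, Slc4a11 (-3.99 ± 0.80), Car14 (-3.15 ± 0.62) and Slc26a7 (-2.97 ± 1.10), rest on 3 against 21, 13 against 53 and 2 against 7 UMIs. DESeq2 called 2 of the 10 and left Car1 at an adjusted p of 0.533 with a log2 difference of 4.20.

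The late class itself was made of 3 clusters that differed in the members. The cluster with least haemoglobin (led by Tmcc2, Slfn14 and Sowaha; 78.4% in both libraries) had 4709 and 5016 CPM of Car2 and 764 and 557 CPM of Slc4a1. The next (Bpgm, Hba-a2, Trim10) had 1788 and 941 CPM of Car2 and 273 and 116 CPM of Slc4a1. The cluster with most haemoglobin (Hbb-bs, Hba-a2, Hba-a1; 91.1% and 93.0%) had 354 and 333 CPM of Car2 and 81.0 and 48.7 CPM of Slc4a1. This order was the same in both libraries and also without haemoglobin in the denominator, where Car2 ran from 21818 and 23210 to 3965 and 4778 and Slc4a1 from 3542 and 2579 to 907 and 699. These are levels without a test, and library 2 had 4, 8 and 20 cells in the 3 clusters.

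**Figure D2:**
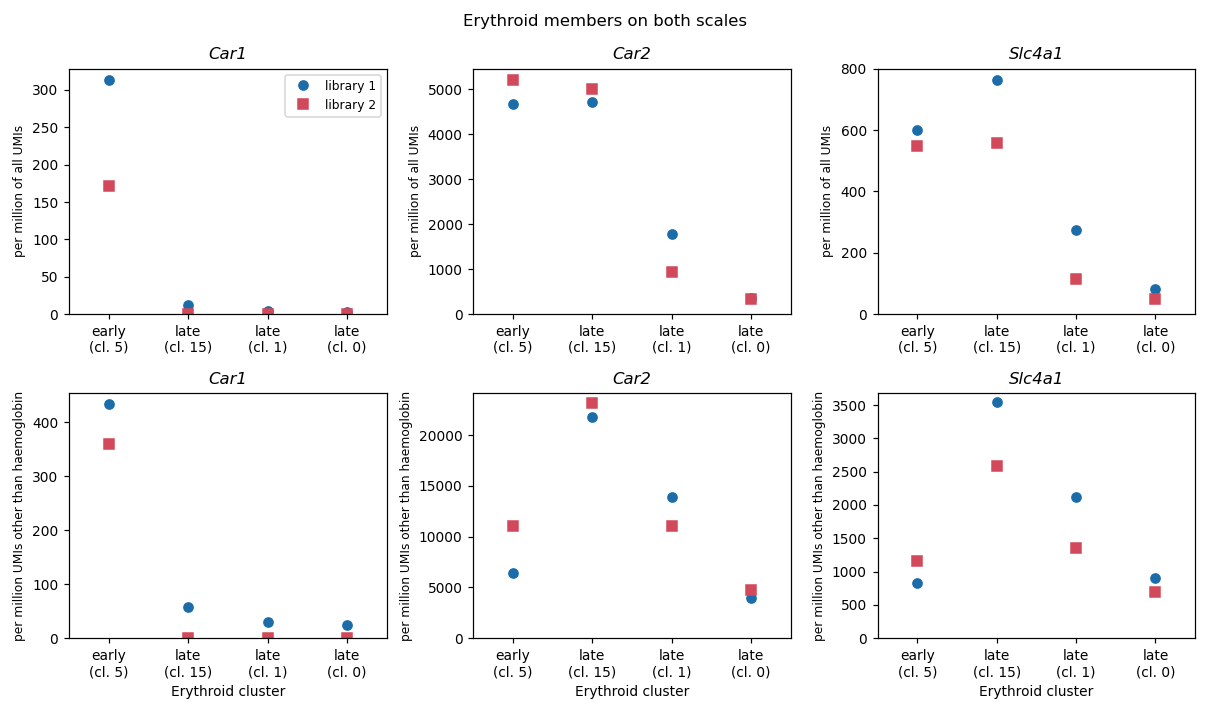
Car1, Car2 and Slc4a1 in the early erythroblast-like cluster (cluster 5) and the 3 late clusters (15, 1 and 0), as CPM of all UMIs (top) and of UMIs other than haemoglobin (bottom), with 1 point per library. Car1 is high in the early cluster alone on both scales, while Car2 and Slc4a1 without haemoglobin peak in cluster 15 in both libraries.

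Car3, an isoform best known from muscle and fat, had its highest mean over the 2 libraries in fibrocyte-like cells, at 1119 and 1120 CPM (43 of 52 and 18 of 25 cells), though in library 1 alone non-sensory cochlear epithelium-like cells were higher. Cluster 3, led by matrix genes, had 732 and 653 CPM (42 of 70 and 5 of 19 cells), connective tissue fibroblast-like cells had 352 and 140 CPM, and the library ranges of these 3 classes did not overlap. Fibrocyte-like cells stood above the mean of the other classes by 3.92 ± 0.58 (edgeR adjusted p = 0.000518), and cluster 3 by 3.03 ± 0.67 (edgeR adjusted p = 0.0166). In the 3 clusters that carried Slc4a11, Car3 lay between 15.1 and 27.4 CPM. In hair cell-like cells, 7.69% of cells had a Car3 UMI, against 79.2% of fibrocyte-like cells.

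Non-sensory cochlear epithelium-like cells were also called higher for Car3 (3.24 ± 0.62, edgeR adjusted p = 0.00283), but there the libraries differed. Library 1 had 1685 CPM from 15 of 37 cells, and library 2 had 72.4 CPM from 2 of 37 cells. A single cell of library 1 held 440 of the 799 UMIs, among 23875 UMIs, with 195 of the epithelial marker Epyc, 11 of Car13, 3 of the fibrocyte marker Otos and 0 of the fibrocyte marker Kcnk2 and the fibroblast markers Col3a1 and Dcn. The 5 highest cells held 91.9% of the library's Car3 UMIs in this class. Without the top cell library 1 was at 797 CPM and the difference was 2.32 (edgeR adjusted p = 0.00978). Library 2 alone gave 0.49, a difference of log2 CPM with a prior count of 2 added, not an edgeR estimate.

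Car14, a membrane anhydrase, had 4 separate high classes. Fibrocyte-like cells had 961 and 1167 CPM with a UMI in 51 of 52 and 25 of 25 cells, and cluster 17 (Fibin, Otol1, Lfng), which carried 9 of 12 non-sensory epithelium markers, had 788 and 613 CPM in 54 of 54 and 6 of 7 cells. Stria intermediate cell or melanocyte-like cells had 1002 and 1169 CPM in all 2 and all 19 cells, and cluster 12 had 688 CPM in 28 of 28 cells. The fibrocyte-like level was above the mean of the other classes by 3.34 ± 0.16 (edgeR adjusted p = 7.80e-31), and that of cluster 17, in the fit with at least 4 cells, by 2.54 ± 0.25 (edgeR adjusted p = 1.85e-22). Stria marginal cell-like cells, in library 2 alone, had 374 CPM in 7 of 9 cells. Among classes with at least 10 cells in both libraries, 5 followed at similar levels, cluster 3 with 192 and 221 CPM, fibroblast-like cells with 169 and 180, cluster 8 with 144 and 168, cluster 16 with 141 and 144, and cluster 7 with 122 and 143. Cluster 3 was called higher (0.74 ± 0.24), a call lost with at least 4 cells (edgeR adjusted p = 0.0614) and with DESeq2 (adjusted p = 0.155).

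Car14 was called lower in macrophage-like cells (-2.73 ± 0.53; 24.3 and 19.2 CPM) and in cluster 20 (-2.83 ± 0.47; 34.4 and 0 CPM), and, with at least 4 cells, in early erythroblast-like cells (-3.04 ± 0.52). Hair cell-like cells had 193 CPM in library 1, from 19 of 48 cells, and 0 UMIs in the 4 cells of library 2, which allows up to 83.3 CPM (3 counts). In late erythroid cell-like cells, which should lack it, 14.3% of cells had a Car14 UMI (2.24% after thinning), against 98.7% (81.8%) of fibrocyte-like cells.

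Connective tissue fibroblast-like cells, the related class, were named from 4 of 9 markers (Col3a1, Dcn, Pdgfra and Apod). The rest of that list was low, from Col1a1 at 0.892 and 1.03 CPM to Igfbp6 at 41.0 and 45.2 CPM. Fibrocyte-like cells were compared directly with this class. Car14 was higher by 2.54 ± 0.25 (edgeR adjusted p = 3.71e-14) and Car2 by 2.20 ± 0.32 (edgeR adjusted p = 3.82e-08). These were the 2 members called higher of 8 tested, where 14.2% of all tested genes were. Car3 was higher by 2.32 ± 0.85, which did not pass (edgeR adjusted p = 0.0704) and did pass with at least 4 cells (2.36 ± 0.77, edgeR adjusted p = 0.0393), where 3 members were called and 11.5% of all tested genes were higher. The median mitochondrial share of fibrocyte-like cells was 8.85% and 11.3%, against 3.04% and 3.21% in fibroblast-like cells; its part in the differences was not tested.

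Car13, a cytosolic isoform, was epithelial. Cluster 13 (Fabp7, Fzd9, Hey1), with 5 of 12 non-sensory epithelium markers, had 312 and 300 CPM in 41 of 41 and 5 of 6 cells. Non-sensory cochlear epithelium-like cells had 306 and 119 CPM (35 and 18 of 37 cells), cluster 12 had 124 CPM, cluster 20 had 88.5 and 106 CPM, and cluster 17 had 66.2 and 43.8 CPM. Non-sensory epithelium-like cells stood 5.14 ± 0.27 above the mean of the other classes (edgeR adjusted p = 2.73e-27), cluster 20 3.34 ± 0.48 above it (edgeR adjusted p = 4.58e-08), and cluster 13, with at least 4 cells, 4.80 ± 0.24 (edgeR adjusted p = 2.12e-86). Fibrocyte-like and fibroblast-like cells and clusters 7, 8 and 16 did not exceed 7.46 CPM, and cluster 3 had 12 and 0 UMIs. The calls of lower Car13 in cluster 7 (-2.40 ± 0.60), cluster 8 (-1.68 ± 0.55) and fibroblast-like cells (-2.37 ± 0.70) compare levels of 0 to 5.80 CPM, and the 3 were lost without the library block (edgeR adjusted p = 0.131, 0.153 and 0.164).

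The genomic neighbours on chromosome 3 differed in where their mean level over the libraries was highest among classes in both libraries: Car13 in cluster 13, Car1 in early erythroblast-like cells, Car2 in erythroid cells, early or late according to the scale, and Car3 in fibrocyte-like cells.

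Car12, a membrane anhydrase, had 94 UMIs in kept cells. Stria marginal cell-like cells, 9 cells of library 2 alone, held 38 of them in 6 cells, at 618 CPM (exact Poisson 95% interval 437 to 848). These 9 cells clustered with the fibrocyte-like cells and were set apart from that cluster of 86 because each held more UMIs of marginal than of fibrocyte markers, by at least 10, and 2 of the 86 cells lay within 3 UMIs of that limit, both left with the fibrocyte-like cells. At a finer clustering the 6 cells with Car12, led by Dnase1, Kcne1 and Slc12a2, stood apart and held 40.4% of all Car12 UMIs. The other 3 of the 9 cells stayed with the fibrocyte-like cells there and had 0 Car12 UMIs. Cluster 21 (Nefh, Snap25, Cplx1), 6 cells of library 1 with 5 of 7 spiral ganglion neuron markers, had 23 UMIs in 6 of 6 cells, at 102 CPM (65.0 to 154). Non-sensory epithelium-like cells had 19.0 and 39.8 CPM, from 9 and 11 UMIs, and in the fit with at least 4 cells this was 5.32 ± 0.68 above the mean of the other classes (edgeR adjusted p = 2.27e-13). The classes with the highest levels are each from 1 library, so class and library cannot be told apart there. Late erythroid cell-like cells had 0 UMIs in both libraries.

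Slc26a4 (pendrin) was seen in 2 places. Cluster 20, led by Vmo1, Rnase1, Gpx3 and Dkk2, had 221 and 133 CPM (11 of 16 and 5 of 13 cells). This cluster carried 3 of 6 stria marginal and 4 of 12 non-sensory epithelium markers and was left without a name. Its 10 leading genes held Crhbp and Lrp2 of the non-sensory list and 0 marginal markers. It stood 6.51 ± 1.48 above the mean of the other classes (edgeR adjusted p = 0.0247), a call lost without the filter on low counts (0.0516) and with stricter limits on cells (0.0879). Non-sensory epithelium-like cells had 19.0 and 760 CPM, from 9 and 210 UMIs, with a difference of 6.76 ± 1.04 (edgeR adjusted p = 0.00283). The libraries of this class lie far apart in CPM. Each taken alone gave 2.15 and 6.30, as differences of log2 CPM with a prior count of 2 added. These are not edgeR estimates, so they are not on the scale of the fitted 6.76.

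A finer cluster, picked because it held most pendrin UMIs, was split unevenly between the libraries. It was led by Tcap, Map1b and Ceacam16, carried 5 of 12 non-sensory epithelium markers (Otoa, Lrp2, Otog, Epcam and Cldn9), and had 1 cell in library 1 and 15 in library 2. These 16 cells held 213 of all 302 Slc26a4 UMIs (70.5%), with a UMI in 15 of them. As the cluster was picked for its Slc26a4, a high share follows from the choice. Its levels were 1292 and 2100 CPM, while the remaining non-sensory epithelium-like cells (36 and 22) had 2.14 and 28.0 CPM. The 28.0 CPM of library 2 came from 5 UMIs in 1 cell. Whether cell numbers account for the gap between libraries was not tested. Car3 was at 0 UMIs in the 16 cells, and Car12 had 9 UMIs in 4 of the 15 cells of library 2. In cluster 8, which had 0 cells with a UMI after thinning, 4.76% of cells had a Slc26a4 UMI, against 23.0% (18.9% after thinning) of the non-sensory class and 55.2% (24.1%) of cluster 20.

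Slc26a7 was the most narrowly placed transporter. Cluster 20 had 536 and 732 CPM, from 109 and 55 UMIs, in 16 of 16 and 12 of 13 cells, and held 88.2% of all Slc26a7 UMIs. No other class exceeded 11.4 CPM. The difference from the mean of the other classes was 9.19 ± 0.34 (edgeR adjusted p = 4.30e-38). With Slc26a7 in nearly every cell of cluster 20, its overlap with Slc26a4 among those cells (11 and 5 cells with both) was largely fixed. The members called higher in cluster 20 were Slc26a7, Slc26a4 and Car13, and those called lower Car2 and Car14.

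**Figure D3:**
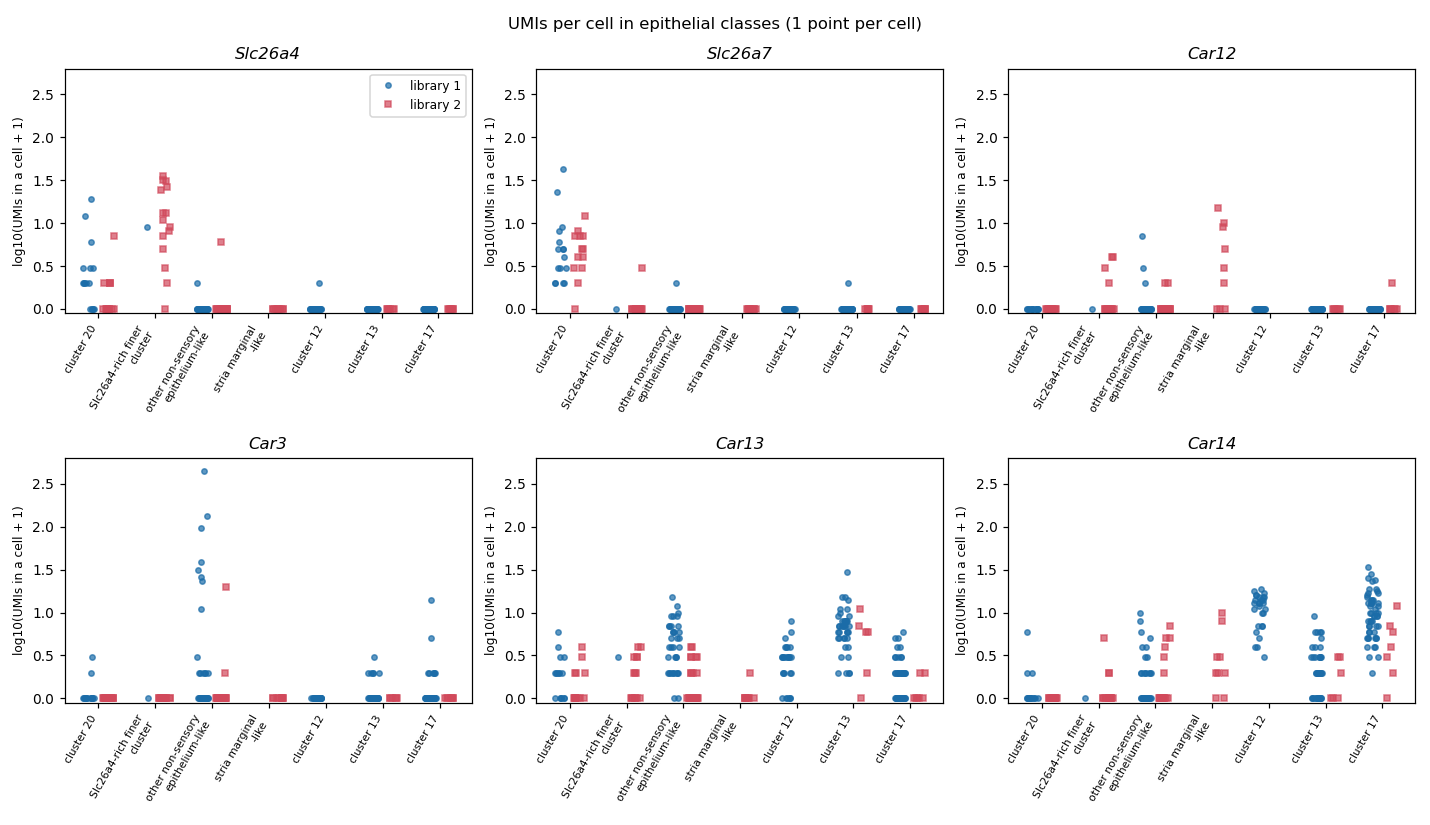
UMIs per cell, as log10(UMIs + 1), of 6 members in epithelial classes, with 1 point per cell and the Slc26a4-rich finer cluster drawn apart from the other non-sensory epithelium-like cells. Slc26a7 is seen almost only in cluster 20, Slc26a4 in cluster 20 and the finer cluster, and Car3 in a few cells of library 1.

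Slc4a11 was carried by clusters 16, 8 and 7, none of which met all limits for a name. Of 7 fibrocyte markers, cluster 7 carried 3, as many as the named fibrocyte-like class. Cluster 8 carried 2, with Coch among its leading genes, and cluster 16 carried 1, Otor. Cluster 7 also carried 3 of 5 stria basal cell markers, with 0 of that list among its 10 leading genes, and cluster 8 also 3 of 9 endothelial markers. Cluster 16 had 117 and 138 CPM (16 of 39 and 45 of 126 cells), cluster 8 had 102 and 146 CPM (46 of 66 and 84 of 123 cells), and cluster 7 had 104 and 69.5 CPM (95 of 157 and 13 of 27 cells). The range of cluster 8 overlapped with each of the others, while those of clusters 16 and 7 did not overlap. The differences from the mean of the other classes were 3.34 ± 0.31, 3.19 ± 0.25 and 2.78 ± 0.27 (edgeR adjusted p = 6.03e-12, 1.00e-14 and 1.09e-11). Fibrocyte-like cells were lower (-3.68 ± 0.87; 2 and 0 UMIs), as were fibroblast-like cells (-2.18 ± 0.63; 7 and 2 UMIs). The call in fibroblast-like cells was lost with at least 4 cells (edgeR adjusted p = 0.0607) and without the erythroid classes (0.0687). Non-sensory epithelium-like cells were also called lower (-2.24 ± 0.83), a call lost with at least 4 cells (edgeR adjusted p = 0.262) and with DESeq2 (adjusted p = 0.0710). Hair cell-like cells were lower by 2.18 ± 0.91 in the fit with at least 4 cells (a log2 difference of -2.18; edgeR adjusted p = 0.0493). That call rests on 2 and 0 UMIs, and 0 in the 4 cells of library 2 allows up to 83.3 CPM. Cluster 3 had 10.5 and 76.9 CPM, the latter from 8 UMIs in 1 cell. After thinning, 16.8% to 23.3% of cells of the 3 clusters had a UMI, against 1.30% of fibrocyte-like cells.

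Late erythroid cell-like cells were called higher for 4 of 8 members, where 10.9% of all tested genes were. For Slc4a11 (2.29 ± 0.53) and Slc26a7 (4.24 ± 0.93) the calls rest on 19 and 2 and on 7 and 0 UMIs among 3421579 and 412515, in sums whose TMM factors were 0.0968 and 0.108. Over all UMIs these levels, 5.55 and 4.85 CPM for Slc4a11 and 2.05 and 0 for Slc26a7, lie within the range of classes that were not called. For Slc26a7 library 2 held 0 UMIs and gives no direction.

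**Figure D4:**
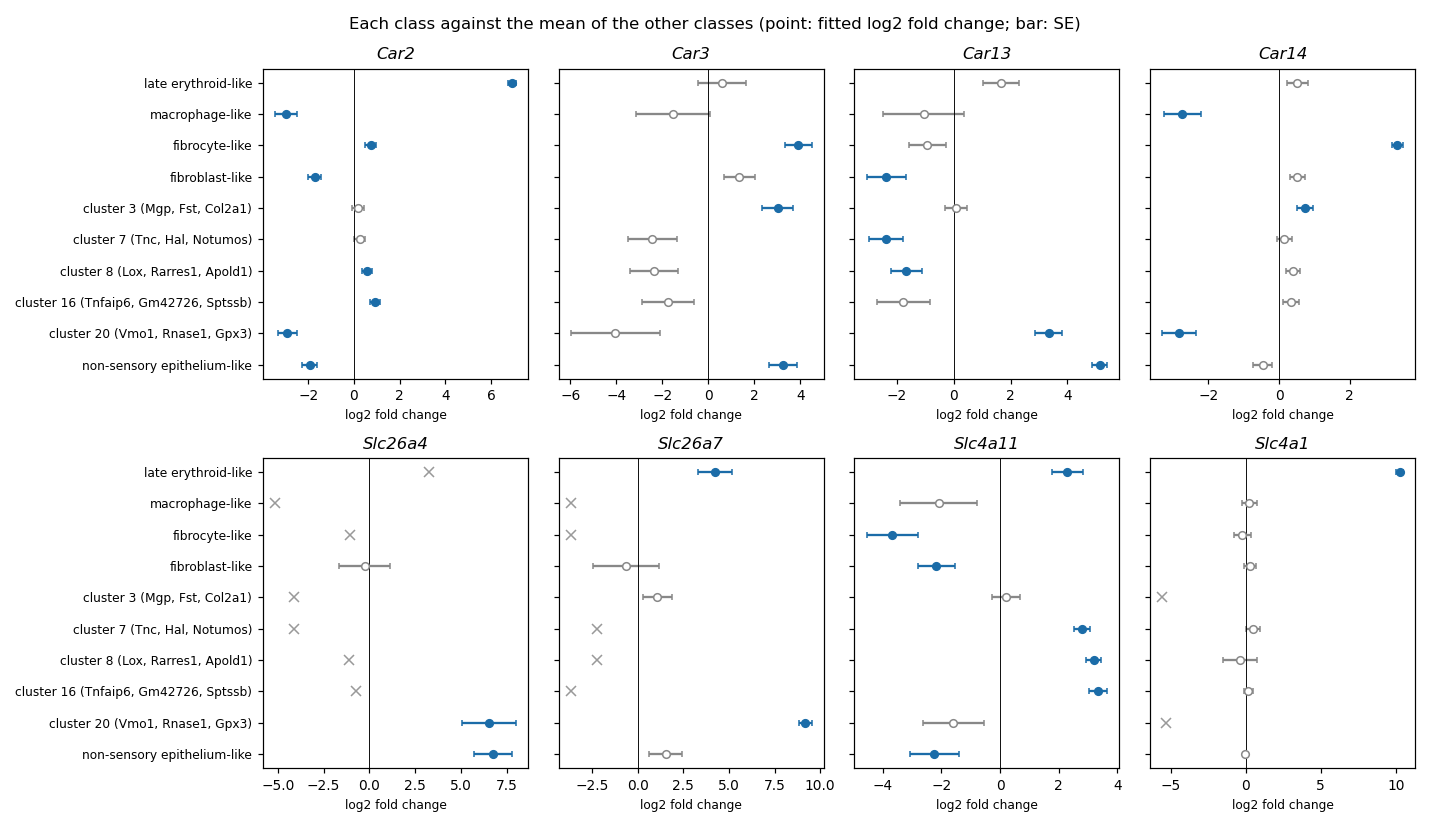
Fitted log2 fold change of 8 members in each of 10 classes against the mean of the other classes, with bars for the SE, filled points for calls at an adjusted p under 0.05, open points for no call, and crosses where the SE was over 3. Slc4a1, Slc26a7 and Car2 hold the largest values, while Car14 and Slc4a11 separate fibrocyte-like cells from clusters 7, 8 and 16.

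Levels across the 20 class-by-library sums placed each tested member beside other genes, as a description over 10 classes that share 2 libraries. The highest Pearson correlations of log2(CPM + 10) were 0.994 for Slc4a1 with Rhag, a red cell membrane gene, 0.987 for Slc26a7 with Cwh43 and with Bbox1, 0.967 for Car13 with Aldoc, 0.953 for Slc26a4 with Krt8, 0.923 for Car14 with Fastk, 0.902 for Car2 with Fbxo9, 0.891 for Slc4a11 with Gper1 and 0.839 for Car3 with Iqgap2. Cwh43 and Bbox1 had 20 and 30 UMIs, so their likeness to Slc26a7 rests on low counts.

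Of 69 genes in 6 lists of related transport genes, 30 were tested in the fit with at least 10 cells, which is used here unless stated. The list of the band 3 complex and red cell membrane skeleton had 8 of 12 genes tested, and 8 were higher in late erythroid cell-like cells, where 10.9% of all tested genes were. As with the members, such genes pass the filter on counts largely through the erythroid class, so the count is a description. Among them were Epb42 (10.84 ± 0.36) and Rhd (10.08 ± 0.29), the protein 4.2 and Rh protein that sit with Slc4a1 in the red cell membrane. In cluster 20, where 11.9% of all tested genes were higher, 2 of 3 other Slc4 transporters tested were higher, the anion exchangers Slc4a3 (2.64 ± 0.59) and Slc4a2 (1.77 ± 0.37). Of the other Slc26 transporters 1 of 2 was higher there, the sulfate transporter Slc26a2 (2.47 ± 0.59), and of the proton and monocarboxylate genes 3 of 8, among them the scaffold Slc9a3r1 (1.78 ± 0.28) and the proton pump subunit Atp6v1a (1.52 ± 0.27). In non-sensory epithelium-like cells 5 of 8 proton and monocarboxylate genes were higher, among them the monocarboxylate transporter Slc16a7 (2.84 ± 1.06), Slc9a3r1 (2.74 ± 0.19) and the sodium-proton exchanger Slc9a9 (2.66 ± 0.70), where 18.3% of all tested genes were. Fibrocyte-like cells were higher for 4 of 8 chloride channel genes and lower for 1, with Clcn2 (1.96 ± 0.42), Clcn7 (1.01 ± 0.37) and Clic4 (0.92 ± 0.20) among the higher, where 17.5% and 7.91% of all tested genes were higher and lower. Of 10 other genes of the carbonic anhydrase family only Car11 was tested in that fit. It was higher in fibroblast-like cells (2.08, where 13.9% of all tested genes were), cluster 16 (1.86), cluster 8 (1.70), cluster 3 (1.56) and cluster 7 (1.09) and lower in cluster 20 (-2.34) and non-sensory epithelium-like cells (-1.64). It was lower in fibrocyte-like than in fibroblast-like cells (-2.26), where 13.7% of all tested genes were. In the fit with at least 4 cells 2 of the 10 were tested. There Car7 was called higher in hair cell-like cells and Car11 lower, where 11.4% of all tested genes were lower.

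**Figure D5:**
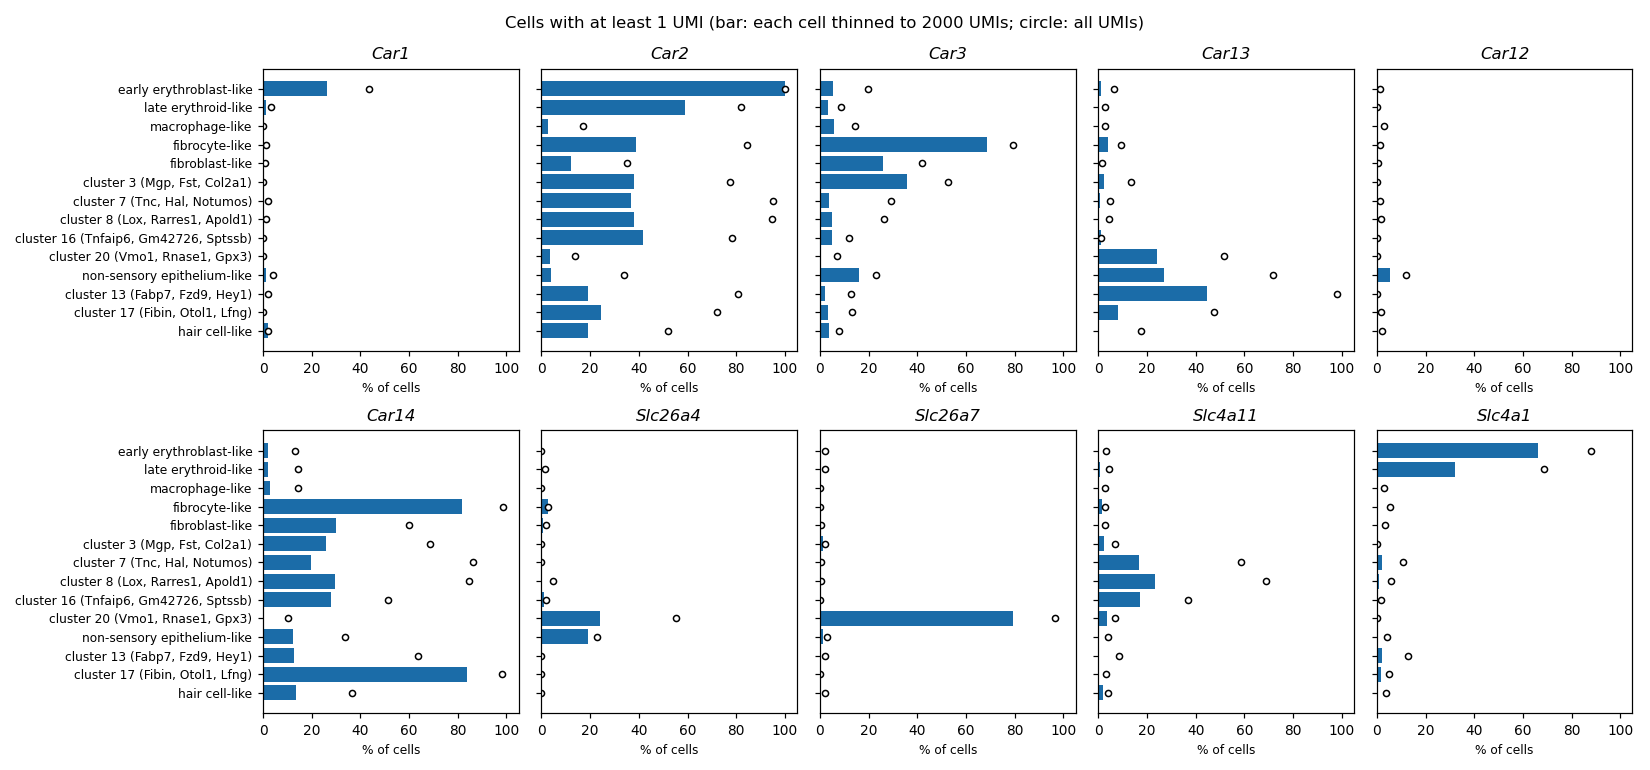
Share of cells with at least 1 UMI of each member in the 14 classes with at least 4 cells in both libraries, after thinning each cell to 2000 UMIs (bars) and with all UMIs (circles). Car14 in fibrocyte-like cells and cluster 17 and Slc26a7 in cluster 20 keep over 79% of cells after thinning, whereas Slc4a11 falls to 23.3% or less.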

How the data were processed

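The 2 libraries of dissociated mouse cochlea were analysed. The deposited files hold UMI counts, not normalized, for each gene in each barcode; the submitters' processing notes name Cell Ranger 2.1.0 and the mm10 build. The selection of barcodes before deposit was not described. Of 1610 and 720 barcodes (20212520 and 7094752 UMIs), those with under 300 genes (275 and 60), those with over 20% mt- UMIs (4 and 16) and Scrublet doublets at an expected rate of 2% (2 and 4) were removed. No correction for free RNA was made.

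The remaining cells were clustered in scanpy 1.11.5 (30 components, 15 neighbours, Leiden resolution 1) on 2035 genes: markers and variable genes with an odd identifier checksum. The members, the related lists and 13968 genes in all were held out. Classes were named from 25 lists with 182 markers (at least 3 markers, 40% of a list and a margin of 9 percentage points, a margin set after a first clustering had been seen), and 9 cells of the fibrocyte cluster with more marginal than fibrocyte marker UMIs were set apart. Each named class also had more markers of its own list than of any other list among its 10 leading genes. Clusters 7, 17 and 20 met the other limits but lacked this. Counts were summed per class and library and fitted in edgeR 4.0.16 (TMM, filterByExpr minimum count 10, robust quasi-likelihood, library as block, since classes of 1 library share a suspension). Classes with at least 10 cells in both libraries gave 20 sums (75175 to 3682120 UMIs; 9322 genes fitted, 4549 held-out genes tested); with at least 4 cells, 28 sums (5356 tested), used for early against late erythroid cells because the early class had 7 cells in library 2. The median prior degrees of freedom were 71.5 beside 9 residual ones, and infinite beside 13 with at least 4 cells. The spread used for a gene was therefore largely that shared over genes, most of all in the second fit. P-values were adjusted by Benjamini-Hochberg within a contrast. The fit was tested on simulated data.

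Named genes are the 10 members, at most the 3 largest called changes per list and class, and the 3 most correlated tested genes per member. Some genes that this rule names are not reported here. The members and lists were chosen with earlier results of these data known.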

Additional observations from a re-analysis of the deposited data

Results flagged for a closer look

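Member UMIs above the limit that a count of 0 allows (3 counts) were found in barcodes left out of the classes. Barcodes with under 300 genes, whose UMIs were 95.1% and 96.0% haemoglobin, held 60 and 20 UMIs of Car2 in libraries 1 and 2, and in library 1 also 23 of Slc4a1, 14 of Car3, 11 of Car14 and 4 of Slc4a11. Per 10000 Hbb-bs UMIs, Car2 was at 0.829 and 1.16 in these barcodes, against 76.8 and 58.2 in the erythroid classes, and Slc4a1 at 0.318 and 0.174, against 11.2 and 6.56.

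Barcodes with over 20% mitochondrial UMIs, 4 in library 1 and 16 in library 2, held 71 and 45 UMIs of Car3 and 19 and 96 of Car14, and in library 2 also 20 of Car2 and 14 of Car12. The 4 barcodes marked as doublets in library 2 held 56 UMIs of Car3, 24 of Car14, 11 of Slc4a11 and 4 of Car2. With 14 further UMIs beside 57 in kept cells, Car12 of library 2 is the member whose total these limits on cells touch most.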

How the results depend on the processing

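The numbers of members called higher (20) and lower (12), over 10 classes and 8 members, stayed within 1.5 times under all alternatives run: 16 to 25 and 9 to 15. Some alternatives ran other numbers of tests, so these counts are not shares. The fit with at least 4 cells, with 14 classes and 10 members, gave 25 and 15. Calls over all genes rose from 8963 to 16383 when classes with at least 4 cells entered, which adds classes and genes. Member calls in early against late erythroid cells, 5 in the edgeR fit, were 2 with DESeq2 and 9 at a clustering resolution of 2.0; the cause was not tested. Single libraries often gave other sizes: of 39 named values, 24 moved by more than the SD between libraries without replicate 1 and 12 without replicate 2. The sign turned in 2, both of Slc26a7 without replicate 1, where late erythroid cell-like cells hold 0 UMIs and the prior count sets the value: from -0.98 to 2.46 in late erythroid cell-like cells and from -2.92 to 2.05 in early against late cells over both libraries. Classes of 1 library share a suspension, so the library was the replicate block; without the block, higher and lower member calls were 16 and 9, calls over all genes 7297, fibrocyte-like against fibroblast-like 2 and early against late 4. With 1 library left out no residual degrees of freedom remain, so those values carry no test. Stricter limits on cells (500 genes, 10% mt- UMIs) left fibrocyte-like cells under 10 in a library, and that pair was not run there. Leaving out haemoglobin genes, and leaving out the epithelial cell with most Car3, were chosen after seeing the data. With 2 libraries and classes of down to 4 cells, levels of a few UMIs carry little precision.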
